A study of Homo sapiens with 3 samples.

Results

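The data described here are the genes of cyclic nucleotide signaling in SKOV-3 cells, a human ovarian cancer cell line, after depletion of the histone H3K9 methyltransferase G9a. The set was chosen by name, as 40 genes in 4 role groups: 18 phosphodiesterases, 8 adenylyl cyclases, 8 subunits of cAMP- and cGMP-dependent protein kinases, and 6 further effectors, transcription factors and anchoring proteins. Cells were transduced with lentivirus for G9a shRNA1, G9a shRNA2 or a shRNA against luciferase (Luc shRNA, the control), and every culture, the control included, was kept under puromycin for 2 weeks to obtain stably transduced cells. One Affymetrix U133 Plus 2.0 array was hybridized per condition, 3 arrays in all, so no value has a replicate error and no difference could be tested. The labels do not say whether a culture was a clone or a pool.

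Cyclic AMP and cyclic GMP are small intracellular messengers. Adenylyl cyclases make cAMP when Gs-coupled receptors are engaged, and guanylyl cyclases make cGMP in answer to nitric oxide or natriuretic peptides. Phosphodiesterases break the messengers down, and each family has its own preference for cAMP, cGMP or both. In protein kinase A (PKA), regulatory subunits hold the catalytic subunits inactive until cAMP binds, anchoring proteins (AKAPs) place the enzyme in the cell, and the freed catalytic subunit can phosphorylate CREB1, which binds the cAMP response element (CRE) of its target genes.

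Values are MAS5 signals of probe sets, the groups of oligonucleotides that report a transcript, on a linear scale with no unit. A fold change is the log2 ratio of a G9a shRNA array to the Luc shRNA array. For each gene, the brightest probe set (by mean log2 signal) of those annotated to that gene alone was used, and it passed the filter when its highest signal of the 3 arrays reached the median of all values, 12.0. Of the 40 genes, 37 had such a probe set, out of 19775 genes on the array. The filter was passed by 28 of the 37, out of 13192 genes, and 24 of the 28 were at or above the median on every array. PDE2A, PDE3B, PDE4B and ADCY2 passed with at least 1 array under it.

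PDE1B, PDE3A, PDE4A, PDE8B, PDE11A, ADCY5, ADCY8, PRKG1 and PRKG2 did not pass, so that neither cGMP-dependent kinase gave a signal from which a fold change could be read. No probe set reported PDE1A or RAPGEF4 alone, and the 4 probe sets of PDE4C were shared with CIST1. A stricter limit at the 75th percentile of all values, 89.7, was reached by 15 of the 28.

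At its brightest probe set EHMT2, which encodes G9a, read 182 in control cells, 29.7 after G9a shRNA1 and 79.2 after G9a shRNA2, or log2 fold changes of -2.62 and -1.20. A dimmer EHMT2 probe set gave -0.21 and -0.75. The epithelial keratins KRT7, KRT8, KRT18 and KRT19, EPCAM and the Müllerian lineage factor PAX8 passed the filter, whereas the ovarian cancer antigen MUC16 and the leukocyte markers PTPRC, CD3D, CD14 and LYZ were under it on all 3 arrays. Of 3 endothelial markers, PECAM1 passed, with signals from 15.4 to 29.9, and VWF and CDH5 did not. The ratio of 3′ to 5′ signal on the β-actin control probe sets, a measure of RNA integrity and labelling, was 3.68 in control cells, 1.83 after G9a shRNA1 and 1.47 after G9a shRNA2, so it differed between the control and both knockdown arrays. For GAPDH it lay between 1.12 and 1.15. All 5 epithelial markers were higher with both shRNAs, beside 44% of all genes past the filter. EPCAM, which the study itself reports as higher after G9a depletion, was higher by 1.06 and 0.98 on the log2 scale, and KRT19 by 1.90 and 1.84. The part of these differences in the results was not tested. Each array reads RNA from a whole culture, so fewer cells with a transcript and less transcript per cell cannot be told apart. The knockdown arrays differed from each other, over the 8348 genes past the 75th percentile, with an SD of 0.24 on the log2 scale, and 0.407% of these genes differed by more than 2-fold. For 4844 dimmer genes past the filter the SD was 0.87, and 14.3% differed by more than 2-fold.

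PDE7B, a phosphodiesterase specific for cAMP, and PRKACB, the β catalytic subunit of PKA, were more than 2-fold lower with both G9a shRNAs, and no gene of the set was more than 2-fold higher with both. These 2 genes are 7.14% of the 28 past the filter. Over all genes past the filter 1.66% were lower and 2.57% higher by the same rule. Among the 15 genes past the 75th percentile the same 2 were lower and 0 were higher, beside 0.467% and 0.611% of all genes there. These shares rest on 2 genes. At the lower limit of 1.5-fold with both shRNAs, PDE9A and PRKAR2B joined the lower genes, which made 4 of 28 beside 4.78% of all genes, and ADCY6 was the 1 gene higher, beside 6.84%. With G9a shRNA1 alone 5 of 28 were more than 2-fold lower (5.1% of all genes) and 0 were higher (4.21%). With G9a shRNA2 alone 2 were lower (3.58%) and 0 were higher (4.35%). The counts with each shRNA share the same control array.

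The median log2 fold change of the 28 genes, as the mean of both shRNAs, was -0.097, against 0.054 over all genes past the filter. It was -0.11 with G9a shRNA1 and -0.15 with G9a shRNA2, whereas over all genes it was 0.0020 and 0.12. Lower with both shRNAs, by any size, were 12 of the 28 genes, higher with both were 7, and 9 went opposite ways, so that 42.9% were lower and 25% higher, beside 30.8% and 44% of all genes past the filter. Of the 81 probe sets of the set past the filter, 25 were lower with both and 31 were higher, 30.9% and 38.3%, beside 29.7% and 44.4% of all probe sets of 1 gene symbol past it. The tilt toward lower values was thus larger when each gene was read by its brightest probe set than over all probe sets of the set.

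**Figure D1:**
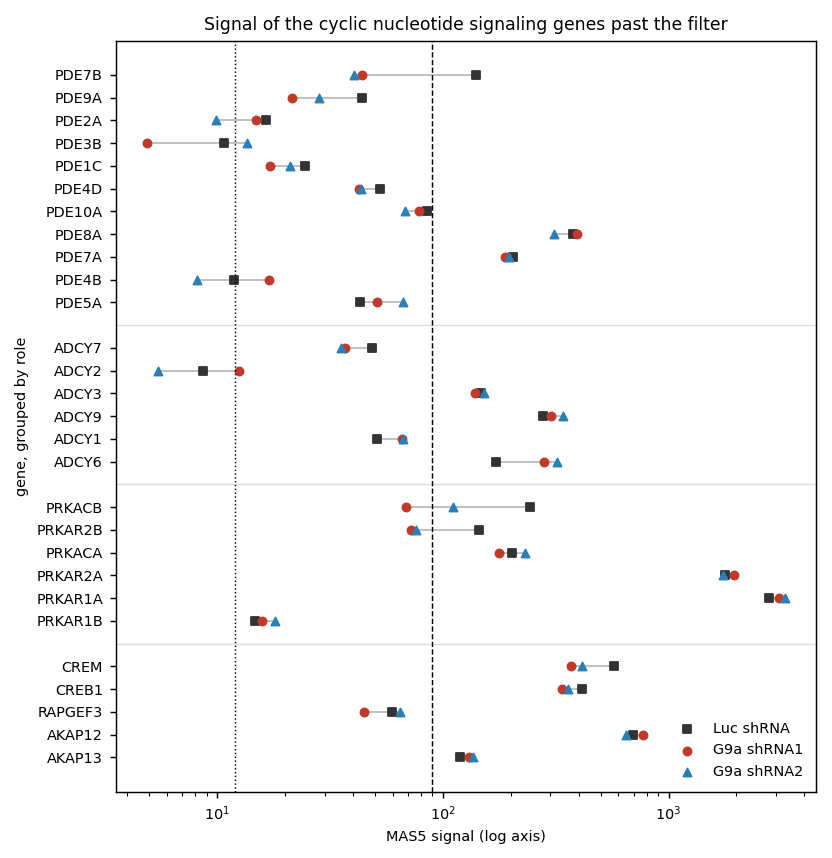
MAS5 signal (x axis, log scale) of the 28 genes past the filter on the Luc shRNA (squares), G9a shRNA1 (circles) and G9a shRNA2 (triangles) arrays, 1 array each, grouped by role; the dotted line is the median of all values (12.0) and the dashed line the 75th percentile (89.7). PDE7B, PRKACB and PRKAR2B have their control square far to the right of both knockdown points, and ADCY6 has it to the left; most other genes have 3 points close together.

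Among the phosphodiesterases, 11 of the 16 measured genes passed the filter, and 3 of those passed the 75th percentile. PDE7B stood apart. Its signal was 141 in control cells, 44.0 after G9a shRNA1 and 40.4 after G9a shRNA2. The knockdown arrays lay close to each other and 3.20-fold and 3.48-fold under the control, log2 fold changes of -1.68 and -1.80. The difference between the shRNAs was 0.12 on the log2 scale. Ranked by the smaller of the 2 changes, PDE7B was number 5 from the bottom among the 8348 genes past the 75th percentile. The other PDE7B probe sets lay near the background. One passed the filter through the control array alone, with 15.8 in control cells, 4.49 after G9a shRNA1 and 2.83 after G9a shRNA2, and the dimmest stayed under the filter with 9.39, 2.01 and 3.86.

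PDE7A, the other member of that cAMP-specific family, did not share this. Its signal was 204 in control cells, 189 after G9a shRNA1 and 196 after G9a shRNA2, or log2 fold changes of -0.11 and -0.062. A dimmer PDE7A probe set gave 0.41 and 0.96, its control signal being 18.7. PDE8A, a cAMP-specific enzyme of high affinity, read 377 in control cells, 393 after G9a shRNA1 and 311 after G9a shRNA2, a spread on both sides of the control. Its log2 fold changes were 0.059 and -0.28, whereas the next 2 probe sets read 0.11 and 0.082, and 0.53 and 0.52.

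Of the enzymes specific for cGMP, PDE9A was lower and PDE5A was higher. The PDE9A signal was 43.9 in control cells, 21.6 after G9a shRNA1 and 28.4 after G9a shRNA2, so that both knockdown arrays were below the control, with log2 fold changes of -1.02 and -0.63. PDE9A was past 2-fold with G9a shRNA1 alone, just over the limit at 2.03-fold, and its other probe set was under the filter. PDE5A, the target of sildenafil, read 43.0 in control cells, 51.3 after G9a shRNA1 and 66.3 after G9a shRNA2, or log2 fold changes of 0.26 and 0.63. PDE5A has 8 probe sets. In the 3 that were past the median on every array both knockdown arrays were above the control, with log2 fold changes from 0.24 to 0.48 with G9a shRNA1 and from 0.38 to 0.95 with G9a shRNA2. Another 3 passed the filter through the G9a shRNA2 array alone, which selects for a higher value there. The 2 under the filter gave -0.93 and 1.16, and -3.11 and -1.69.

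The families that break down both messengers gave smaller or less even values. PDE10A gave -0.11 and -0.32 at its brightest probe set, while its next gave 0.48 and 0.50, and its dimmest -0.61 and -0.28. That dimmest probe set passed the filter through the control array alone and so had to be lower. PDE1C, which is activated by calmodulin, gave -0.52 and -0.23, its control signal being 24.6. Its other probe sets past the filter did not share a value: one with a control signal of 23.0 gave -1.60 and -0.94, and 2 dimmer ones gave -0.0087 and 0.086, and -0.15 and 0.62. The last of these passed the filter through the G9a shRNA2 array alone, which therefore had to be above the control. PDE2A, which is stimulated by cGMP, read 16.4 in control cells, 14.9 after G9a shRNA1 and 9.87 after G9a shRNA2 (-0.14 and -0.73). PDE3B, which is inhibited by cGMP, read 10.7 in control cells, 4.91 after G9a shRNA1 and 13.5 after G9a shRNA2, on opposite sides of the control (-1.13 and 0.34). This probe set passed the filter through the G9a shRNA2 array alone, which therefore had to be above the control. Another PDE3B probe set, past the filter through the control array alone, was lower with both, with 14.1 on the control array, 4.79 with G9a shRNA1 and 6.09 with G9a shRNA2, or log2 fold changes of -1.56 and -1.21. All these PDE3B signals lie near the median of all values.

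Of the cAMP-specific PDE4 family, the targets of rolipram, PDE4D gave -0.30 and -0.27, its control signal being 52.4. Another PDE4D probe set, past the filter through the G9a shRNA1 array alone, gave 0.32 and -2.49 from 10.2. PDE4B read 11.9 in control cells, 17.0 after G9a shRNA1 and 8.12 after G9a shRNA2, again on opposite sides (0.51 and -0.55). It passed the filter through the G9a shRNA1 array alone, which therefore had to be above the control. The median of the 11 phosphodiesterases past the filter was -0.29, from -1.74 for PDE7B to 0.44 for PDE5A, and -0.11 over the 3 past the 75th percentile. Lower with both shRNAs were 7 of the 11, and 1 was higher with both, where 30.8% and 44% of all genes were.

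Among the adenylyl cyclases, none of the 6 past the filter was past 2-fold with either shRNA. ADCY6, a cyclase inhibited by calcium, had the largest change, with a signal of 173 on the Luc shRNA array, 280.2 with G9a shRNA1 and 321 with G9a shRNA2. Both knockdown arrays were above the control, 1.62-fold and 1.86-fold, log2 fold changes of 0.70 and 0.89. This gene has 1 probe set. ADCY9, a widely expressed cyclase, gave 0.11 and 0.28 from 279, and its dimmer probe sets gave 0.27 and 0.99, and 0.49 and 1.29, the latter past the filter through the G9a shRNA2 array alone. The calmodulin-stimulated cyclase ADCY1 gave 0.37 and 0.38 from 51.1. Its next probe set gave 0.20 and 0.010, and a dimmer one, past the filter through the G9a shRNA2 array alone, gave -1.23 and 0.38. ADCY7 gave -0.39 and -0.46 from 48.6 and was the cyclase lower with both. ADCY3 gave -0.082 and 0.046 from 147, with all 3 signals between 139 and 152. ADCY2 read 8.63 in control cells, 12.5 after G9a shRNA1 and 5.45 after G9a shRNA2, near the background and on opposite sides of the control (0.53 and -0.66). It also passed the filter through the G9a shRNA1 array alone, which therefore had to be above the control. The median of the 6 cyclases was 0.089, and 0.20 over the 3 past the 75th percentile.

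Of the kinase subunits, 6 of 8 passed the filter, and 2 of these were lower with both shRNAs. PRKACB had a signal of 243 in control cells, 68.9 after G9a shRNA1 and 111 after G9a shRNA2. Both knockdown arrays lay below the control, by 3.53-fold and 2.20-fold, log2 fold changes of -1.82 and -1.14. The difference between the shRNAs, 0.68 on the log2 scale, was the widest of the 15 genes past the 75th percentile, and PRKACB ranked 21 from the bottom of the 8348 genes there. Its other probe sets were lower on both knockdown arrays as well, but the dimmest passed the filter through the control array alone and so had to be lower. A dimmer one read 34.2 in control cells, 11.5 after G9a shRNA1 and 22.9 after G9a shRNA2, and the dimmest read 18.3, 7.86 and 9.38, so that with G9a shRNA2 neither was past 2-fold (log2 fold changes of -0.58 and -0.97). With each gene taken as the mean of its probe sets, PRKACB was therefore no longer past 2-fold with both, and PDE7B still was.

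PRKAR2B, the β form of the type II regulatory subunit, read 145 in control cells, 72.0 after G9a shRNA1 and 76.3 after G9a shRNA2. The knockdown arrays were nearly equal and both below the control, 2.01-fold and 1.90-fold, log2 fold changes of -1.01 and -0.92. It lay just inside the 2-fold limit with G9a shRNA1 and just outside it with G9a shRNA2, and passed it with both after quantile normalization. It has 1 probe set and ranked 49 from the bottom.

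The other PKA subunits were near the control at their brightest probe sets. PRKACA, the α catalytic subunit, read 203 in control cells, 178 after G9a shRNA1 and 232 after G9a shRNA2, or log2 fold changes of -0.19 and 0.20. A dimmer PRKACA probe set gave -0.60 and 0.018 from 30.2. The α regulatory subunits gave 0.15 and 0.23 for PRKAR1A, from 2780, and 0.14 and -0.033 for PRKAR2A, from 1779. PRKAR1B, the β form of type I, gave 0.11 and 0.30 at a signal near the background, from 14.7 to 18.0. Its other probe set did not share this, with 15.4 in control cells, 22.6 after G9a shRNA1 and 3.25 after G9a shRNA2 (0.55 and -2.25). The median of the 6 subunits was 0.029, since 4 of the 6 lay within 0.30 of the control with each shRNA while PRKACB and PRKAR2B lay far below.

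**Figure D2:**
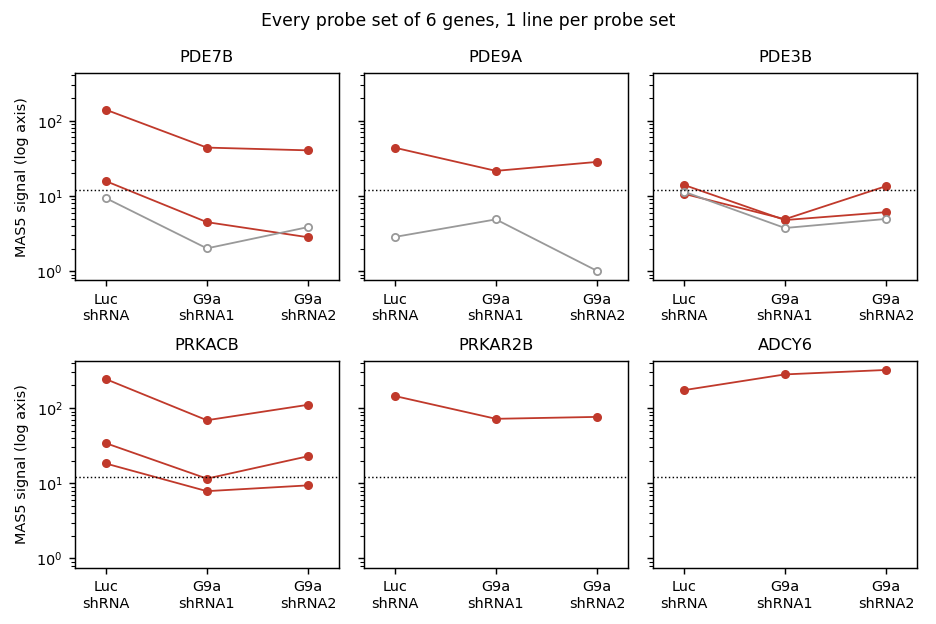
Signal (y axis, log scale) of every probe set of 6 genes on the 3 arrays, 1 line per probe set; filled points pass the filter, open grey points do not, and the dotted line is the median of all values. All 3 lines of PDE7B and of PRKACB start highest on the Luc shRNA array, PDE3B lies near the dotted line, and PRKAR2B and ADCY6 have 1 probe set each.

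Among the other effectors, CREM, a transcription factor of the CREB family whose gene also encodes the cAMP-inducible repressor ICER, read 571 in control cells, 370.4 after G9a shRNA1 and 412 after G9a shRNA2 at its brightest probe set. Both knockdown arrays were below the control there, with log2 fold changes of -0.62 and -0.47. The next CREM probe set went the other way, with 0.30 and 0.21. Those with control signals of 311, 242 and 48.5 were lower with both, with -0.25 and -0.23, -0.37 and -0.50, and -0.25 and -0.28. The dimmest gave 0.087 and 0.033 from 23.1, so most but not all CREM probe sets were lower. CREB1 gave -0.28 and -0.20 from 412, and its next probe set gave 0.018 and -0.089. Dimmer CREB1 probe sets did not share a direction, with -0.56 and -0.44 from 116 in one, and 0.25 and 0.76 from 49.7 in another. RAPGEF3, the cAMP-activated exchange factor Epac1 of the small G protein Rap, read 59.3 in control cells, 45.0 after G9a shRNA1 and 64.5 after G9a shRNA2, or log2 fold changes of -0.40 and 0.12. The anchoring protein AKAP12 gave 0.15 and -0.10 from 697. Its next probe sets were lower with both, with -0.23 and -0.25 from 357, and -0.40 and -0.29 from 119. AKAP13, another anchoring protein, gave 0.13 and 0.19 from 119. None of these 5 genes was past 1.5-fold with both shRNAs.

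**Figure D3:**
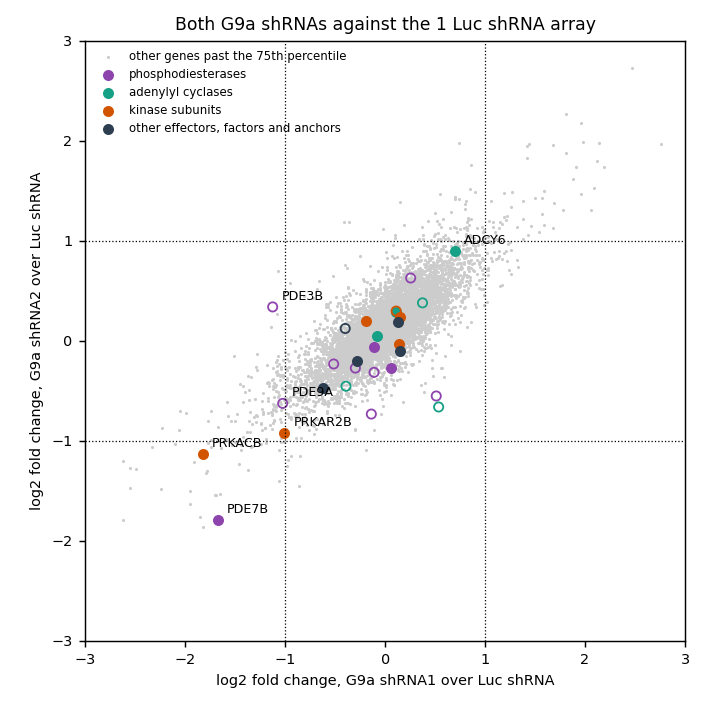
Log2 fold change over the control for G9a shRNA1 (x axis) and for G9a shRNA2 (y axis), 1 array per shRNA and 1 shared control array; grey points are the genes past the 75th percentile (2 of 8348 lie outside the axes), filled coloured points are genes of the set past it, open ones are its dimmer genes past the filter, and dotted lines mark 2-fold. PDE7B and PRKACB lie past both lines at the lower left, PRKAR2B lies on the edge, and ADCY6 lies inside the upper lines.

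Promoter windows are shown for the 3 genes past the 75th percentile that were lowest with both shRNAs, to show which of them carry a CRE. The windows run from 250 bases before to 50 bases after an annotated start, taken from RefSeq on GRCh38.p14, and 34 of the 40 genes had at least 1. PDE3B, PDE7A, PDE9A, ADCY6, ADCY8 and ADCY9 were not among them. The letters searched were the palindromic full CRE, TGACGTCA, and its short core TGACG on either strand (CGTCA on the printed strand), which the full CRE holds in both directions. Capitals mark every match of the core. PDE7B has 1 window, chr6:135851451-135851750 on the plus strand. PRKACB has 5, of which the first and most CpG-rich, chr1:84077829-84078128 on the plus strand, is printed. PRKAR2B has 1, chr7:107044455-107044754 on the plus strand.
PDE7B: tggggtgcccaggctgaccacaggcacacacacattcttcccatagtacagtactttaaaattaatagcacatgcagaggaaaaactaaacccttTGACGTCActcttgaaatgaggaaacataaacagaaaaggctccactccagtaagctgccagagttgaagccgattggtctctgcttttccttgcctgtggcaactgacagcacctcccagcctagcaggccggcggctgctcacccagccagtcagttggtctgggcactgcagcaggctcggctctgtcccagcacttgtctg
PRKACB: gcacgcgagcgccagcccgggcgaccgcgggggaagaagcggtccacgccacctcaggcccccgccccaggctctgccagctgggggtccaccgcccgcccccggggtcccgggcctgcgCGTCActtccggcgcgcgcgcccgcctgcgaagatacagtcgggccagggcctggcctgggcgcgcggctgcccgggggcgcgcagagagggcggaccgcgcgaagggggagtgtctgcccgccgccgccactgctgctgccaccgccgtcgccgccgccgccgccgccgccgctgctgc
PRKAR2B: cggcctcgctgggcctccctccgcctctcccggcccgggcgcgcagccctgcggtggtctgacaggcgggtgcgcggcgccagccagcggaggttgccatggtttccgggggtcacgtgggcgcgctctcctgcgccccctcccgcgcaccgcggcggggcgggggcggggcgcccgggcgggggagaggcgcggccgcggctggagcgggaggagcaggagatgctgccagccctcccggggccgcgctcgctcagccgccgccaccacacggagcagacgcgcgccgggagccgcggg

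The PDE7B window holds a full CRE at position -155 from its start. The printed PRKACB window holds the core alone, at position -130, and the PRKAR2B window holds neither. The windows also differ in base composition: PDE7B has 5 CpG dinucleotides, against 47 in the printed PRKACB window and 46 in PRKAR2B, where the median of all 35116 windows is 14. Over all windows in the table, 1.85% hold the full CRE and 24.6% the core. Of the 109 windows of the set, 6 hold the full CRE (5.50%) and 22 the core (20.2%). Because windows of 1 gene overlap, those 6 windows come from 4 genes. Stretches of 58 bases around the site in these 4 genes, all on the plus strand of GRCh38.p14, follow for PDE7B (chr6:135851521-135851578), PDE4A (chr19:10416745-10416802), PRKAR1A (chr17:68512356-68512413) and CREM (chr10:35195827-35195884), with the same use of capitals.
PDE7B: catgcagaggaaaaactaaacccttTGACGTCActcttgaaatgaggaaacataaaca
PDE4A: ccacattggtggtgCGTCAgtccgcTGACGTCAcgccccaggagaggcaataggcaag
PRKAR1A: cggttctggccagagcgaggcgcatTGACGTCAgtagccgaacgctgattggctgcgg
CREM: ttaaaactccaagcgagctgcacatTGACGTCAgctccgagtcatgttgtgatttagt

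These 4 genes with a full CRE did not share a direction in the arrays. At the brightest probe set, PDE7B was more than 2-fold lower with both shRNAs, and PRKAR1A was slightly above the control (0.15 and 0.23). CREM was lower by less at its brightest probe set (-0.62 and -0.47), higher at its next (0.30 and 0.21) and mostly lower at its dimmer ones. PDE4A was under the filter. A match of letters is a description of the window and not evidence of binding, and the arrays do not tell which start a transcript came from.

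Other genes of the pathway were read from 8 further lists. Together the lists hold 100 genes, of which 91 were measured and 51 passed the filter. By the rule of 2-fold with both shRNAs, 1 was lower and 6 were higher, beside 1.66% and 2.57% of all genes past the filter. However, 3 of the 6 passed the filter through the knockdown arrays alone and so had to be higher. The 1 lower gene, NPR3, passed it through the control array alone and so had to be lower. On the receptor side, 10 of 20 genes of Gs proteins and Gs-coupled receptors passed the filter. Those 3 genes are among them: VIPR1 and VIPR2, receptors for vasoactive intestinal peptide, and GLP1R, the receptor for glucagon-like peptide 1. VIPR1 read 2.94 in control cells, 21.8 after G9a shRNA1 and 31.5 after G9a shRNA2. VIPR2 read 3.01, 13.7 and 13.9, and GLP1R read 6.58, 15.3 and 13.5 in the same order. All 3 control signals lie under the median of all values, so their count is not read as a result. With a floor set at that median, the log2 fold changes were 0.87 and 1.40 for VIPR1, 0.20 and 0.21 for VIPR2, and 0.35 and 0.18 for GLP1R, none past 2-fold with both. By any size, 6 of the 10 genes were higher with both shRNAs and 1 was lower with both, beside 44% and 30.8% of all genes past the filter. VIPR1, VIPR2 and GLP1R are among the 6 and had to be higher, so this count is not read as a result either. ADORA2B, an adenosine receptor with a signal of 83.8 on the control array, gave 0.56 and 0.39. The lower gene, ADCYAP1R1, read 28.5 in control cells, 17.5 after G9a shRNA1 and 19.0 after G9a shRNA2, or -0.70 and -0.59. GNAS, the gene of the Gs α subunit itself, gave -0.048 and 0.098 from 5083.

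Of 12 guanylyl cyclases, natriuretic peptide receptors and nitric oxide synthases, 5 passed the filter and 1 was lower with both, NPR3, the natriuretic peptide clearance receptor. NPR3 read 20.3 in control cells, 9.34 after G9a shRNA1 and 7.58 after G9a shRNA2, both knockdown arrays under the median of all values. With the same floor it gave -0.76 with each shRNA. GUCY1B1, the β1 subunit of soluble guanylyl cyclase, gave -1.15 and -0.57 from 71.1. PDE6D, a prenyl-binding protein named for the retinal phosphodiesterase, was the 1 gene past the filter among 8 other cyclic nucleotide enzymes, with -0.34 and -0.27.

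Of 5 other PKA-type kinases and PKA inhibitors, 3 passed the filter and none was past 1.5-fold with both; the inhibitors PKIB and PKIG gave 0.15 and 0.35, and -0.024 and 0.11. Of 16 other anchoring proteins, 10 passed and none was past 2-fold with both. AKAP8L, a nuclear protein, gave 0.72 and 0.69 from 164, and AKAP5, a neuronal anchoring protein, gave -0.71 and -1.13 from 27.1. MAP2, a microtubule-associated protein that also anchors PKA, gave -1.95 and -0.20 from 64.9, past 2-fold with G9a shRNA1 alone. Of 8 other CREB family members and coactivators, 7 passed and none was past 2-fold with both. CRTC1, a CREB coactivator, gave 0.63 and 0.82 from 27.5, while CRTC2 and CRTC3 gave 0.36 and 0.37, and 0.0056 and 0.23. Of 15 exporters, channels and Popeye proteins, 8 passed and none was past 2-fold with both. The cAMP-binding Popeye protein gene POPDC3 gave -0.77 and -0.69 from 346, and ABCC4, which exports cAMP, gave -0.51 and -0.20 from 285.

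Among 16 genes known to respond to cAMP through CREB, 7 passed the filter. Of those, 3 were more than 2-fold higher with both shRNAs (2.57% of all genes) and none was lower (1.66%). SIK1, a kinase that restrains CREB coactivators, read 447 in control cells, 1004 after G9a shRNA1 and 1006 after G9a shRNA2, or log2 fold changes of 1.17 and 1.17. DUSP1 and RGS2, which the study itself picked from these arrays, gave 2.14 and 1.98, and 2.12 and 1.79, and their direction is therefore not independent evidence. Another DUSP1 probe set past the filter gave -2.53 and 0.028 from 17.8, and the third passed it through the G9a shRNA2 array alone. NR4A1, an orphan nuclear receptor, gave 0.42 and 1.04 from 19.1. DIO2, the activating deiodinase of thyroid hormone, went the other way, with -0.91 and -0.82 from 43.9. Without DUSP1 and RGS2, 1 of 5 was past 2-fold higher. The median of the 7 genes was 0.73 and that of the 5 was 0.62, against 0.054 over all genes past the filter. The 0.62 is the value of FOS, which read 11.2 in control cells, 18.2 after G9a shRNA1 and 16.3 after G9a shRNA2. FOS passed the filter through the knockdown arrays alone and so had to be higher. The 7 genes hold FOS, DUSP1 and RGS2, so neither median is read as a result. PPARGC1A, also of the 5, gave -0.79 and 0.45 from 43.6. The genes of this list also answer to other signals, such as growth factors and stress, and cAMP was not measured.

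**Figure D4:**
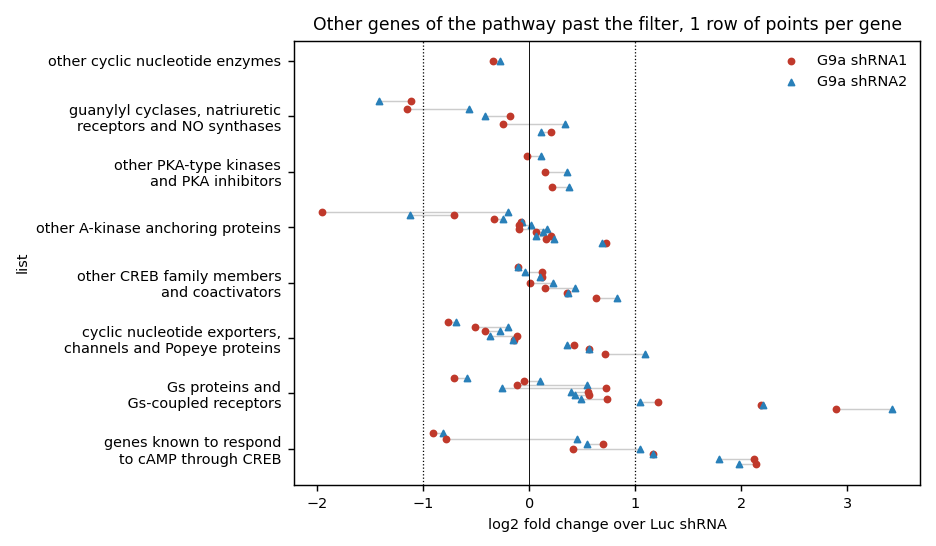
Log2 fold change over Luc shRNA (x axis) of the genes past the filter in 8 lists of other pathway genes (y axis), circles for G9a shRNA1 and triangles for G9a shRNA2, joined by a line for each gene; dotted lines mark 2-fold. The 3 genes past the right line in the receptor list are VIPR1, VIPR2 and GLP1R, those in the list of genes known to respond to cAMP are SIK1, RGS2 and DUSP1, and NPR3 is past the left line.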

How the data were processed

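Total RNA from the 3 cultures was hybridized by the authors to Affymetrix U133 Plus 2.0 arrays, 1 per condition, with nothing pooled. The deposited values are MAS5 signal intensities per probe set on a linear scale, per the labels; version, settings and scaling target are not given in the sources used here, and 2% trimmed means ran from 105 to 115. No signal was at or under 0, and no array was rescaled. Genes were named through the Entrez identifiers of the array annotation: 41097 probe sets had 1 gene symbol, 1801 several and 11777 none. The members, lists and rules were chosen with earlier results of these data known. Named are all members past the filter, with signals per array for those past 2-fold with 1 shRNA or past 1.5-fold with both, and the genes of other lists past 2-fold with both; other genes named, ADORA2B, GNAS, GUCY1B1, MAP2, AKAP5, AKAP8L, CRTC1 to CRTC3, POPDC3, ABCC4, NR4A1 and DIO2 among them, were chosen after their values were seen. With 1 array per condition no test and no paired fit could be made; precision is limited by having so few arrays. The rule was run on simulated data, with changes planted only in genes brighter than the 75th percentile. The simulated arrays differed less than the real ones, so this does not show how the rule does on dimmer genes. Python 3.11.15, numpy 2.4.6, pandas 2.3.3 and matplotlib 3.10.9 were used. Each result was recomputed without the filter, with it set at the 75th percentile or applied to the mean, with low values raised to the median, after median centring or quantile normalization, at 1.5-fold and 3-fold, with probe sets averaged, and for each shRNA singly; averaging only the probe sets past the filter was chosen after seeing the data. Promoter sequences are from RefSeq, GRCh38.p14.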

Additional observations from a re-analysis of the deposited data

Results flagged for a closer look

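In 3 genes past the filter the G9a shRNA arrays lay on opposite sides of the control, each by more than 0.32 on the log2 scale, and the difference was not tested. PDE3B read -1.13 on that scale for G9a shRNA1 and 0.34 for G9a shRNA2, while its other probe set past the filter was lower with both. PDE4B gave 0.51 with G9a shRNA1 and -0.55 with G9a shRNA2. ADCY2 gave 0.53 with G9a shRNA1 and -0.66 with G9a shRNA2. All 9 signals of these genes lay between 4.91 and 17.0, around the median of all values, 12.0. PDE3B passed the filter through the G9a shRNA2 array alone, and PDE4B and ADCY2 through the G9a shRNA1 array alone. In each gene that array therefore had to be above the control.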

How the results depend on the processing

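In every alternative that uses both G9a shRNAs, PDE7B was more than 2-fold lower with both, and its mean log2 fold change lay between -1.94 and -1.74. PRKACB was lower in these too (from -1.56 to -1.22), but the count of 2 genes past 2-fold lower dropped to 1, PDE7B, with the mean over all probe sets, with the mean over those past the filter and at 3-fold. It was 4 at 1.5-fold and 5 with G9a shRNA1 alone (with PDE3B, PDE9A and PRKAR2B), and 3 with no filter (with PDE1B) and after quantile normalization (with PRKAR2B). The count past 2-fold higher, 0, was 1 with no filter (PDE4A, at low signal) and 1 at 1.5-fold (ADCY6). The medians rest on few genes. The phosphodiesterase median, -0.29, was -0.11 past the 75th percentile, -0.44 with the mean over all probe sets and -0.14 with G9a shRNA1 alone. The adenylyl cyclase median, 0.089, was 0.19 with no filter, 0.20 past the 75th percentile and with the filter on the mean, 0.034 after quantile normalization, 0.51 with the mean over all probe sets, -0.0070 with the mean over those past the filter, 0.24 for G9a shRNA1 and 0.17 for G9a shRNA2 taken singly. The kinase subunit median, 0.029, was -0.23 with either mean over probe sets, and -0.016 and -0.013 after median centring and quantile normalization. Quantile normalization shifted the values with G9a shRNA2 by a median of -0.14 past the 75th percentile. No paired analysis was possible because each condition has 1 array. A bias of the 1 Luc shRNA array would enter every fold change and was not tested. Signals near the median of all values limit the reading of PDE3B, PDE4B, ADCY2, PRKAR1B, VIPR2, GLP1R, NPR3 and FOS.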
